A study of Homo sapiens with 12 samples.

Results

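Long intergenic non-coding RNA genes with a LINC number for a name were followed through 12 total RNA libraries of HCT116, a human colon carcinoma cell line. Members were the genes named LINC plus digits, without 1 gene, whose estimated counts reached at least 200 when summed over the 12 libraries. The table held 57134 genes, of which 1868 carried such a name and 1021 had any count. The minimum left 30 genes, among 7756 genes of any kind that reached it. The groups were 2 DASHed mini-bulk, 4 DASHed single-cell, 2 untreated mini-bulk and 4 untreated single-cell libraries, and each group is the same cell line with no other agent or genotype named. DASHed libraries went through scDASH, in which Cas9 cuts ribosomal RNA (rRNA) sequence out of the library, and untreated libraries did not. All were made with MATQ-seq, which amplifies total RNA with or without a poly(A) tail. Single cells were sorted by FACS, and the number of cells in a mini-bulk library is not given in the sources used here.

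Because the members were chosen by their summed counts, those sums are a description only. The sums ran from 204 for LINC01963 to 946 for LINC00910. Just inside the minimum stood LINC02193 with 226 summed counts, LINC01949 with 223, LINC01226 with 212, LINC01572 with 210 and LINC01963 with 204. Just outside stood LINC01814 with 197 summed counts, LINC00896 with 195, and LINC00173, LINC02577 and LINC01012 with 192 each. Untreated libraries were deeper and gave 68.8% of the 14525 member counts and 82.5% of all counts, so they weighed more in the choice. A gene with few counts in untreated libraries could pass only with many in the shallower DASHed ones.

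A LINC number is a placeholder name, given to a long non-coding RNA gene that lies apart from protein-coding genes and has no better name. Such RNAs are transcribed by RNA polymerase II, and most are spliced and polyadenylated as messenger RNAs are. They are on the whole less abundant than messenger RNAs and often differ between tissues, and many hold stretches of transposable elements. A few have known roles in chromatin or as decoys for microRNAs, while most have none assigned.

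In GENCODE v29 (GRCh38), 19 members were annotated as lincRNA, 9 as processed transcript, LINC02210 as a transcribed unitary pseudogene and LINC00205 as a bidirectional promoter lncRNA. They lay on 17 chromosomes, and 22 had their nearest protein-coding start more than 50 kb away. The start of LINC00205, LINC00941 and LINC02210 lay within 1 kb of one. For LINC02210 it was that of LINC02210-CRHR1, 16 bases away on the same strand, which overlaps LINC02210 and had no counts in any library. Only LINC01963 (chr2:216217045-216220192, plus strand) had a single exon. The transcript length per member had a median of 960 bases and a range of 495 to 3594, and the GC content per member had a median of 47.9% and a range of 38.1 to 55.5%. All genes tested in mini-bulk had a median GC content of 51.4%. For 6 members (LINC01002, LINC01772, LINC00174, LINC00937, LINC01123 and LINC01572) at least 10% of the exonic bases lay in exons of other genes too, and LINC00941 and LINC01297 stand for 2 identifiers each, so their values are uncertain.

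Sequence shared between genes matters for these values, since kallisto divides a read among the transcripts that could have given it. At least 10% of the 31-base words of the transcripts recurred, in either orientation, in transcripts of other genes for 19 of the 30 members, and at least 50% for 5. These 5 were LINC01123 (95.2%), LINC01001 (90.9%), LINC01002 (77.8%), LINC02193 (66.8%) and LINC01873 (50.4%), and their values are uncertain too. At the other end, 4 members shared under 1%, namely LINC01963, LINC00205, LINC01278 and LINC02306.

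Stretches of 2 transcripts are shown because the genes have nearly the same low GC content and yet only LINC02306 fell in DASHed mini-bulk libraries. Capitals mark G and C, and the letters are those of the genome in the sense of the transcript. LINC02582 is from chr18:73349634-73349753 (plus strand, exon 3 of 3, 120 bases, 40% GC), and LINC02306 is from chr14:25648577-25648696 (minus strand, exon 10 of 10, 120 bases, 39.2% GC), both by GENCODE v29 on GRCh38.
LINC02582: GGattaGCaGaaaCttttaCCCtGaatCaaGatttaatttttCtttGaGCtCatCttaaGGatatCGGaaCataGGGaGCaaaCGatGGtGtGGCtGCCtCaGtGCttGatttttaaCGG
LINC02306: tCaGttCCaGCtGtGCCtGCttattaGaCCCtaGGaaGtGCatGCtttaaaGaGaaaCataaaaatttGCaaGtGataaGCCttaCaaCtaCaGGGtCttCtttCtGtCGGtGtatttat

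Also shown is the stretch between the starts of LINC00205 and POFUT2, which encodes protein O-fucosyltransferase 2, because the 2 genes are transcribed from opposite strands of 1 promoter region and yet had their highest counts in different cells. It is chr21:45287895-45288052 in RefSeq (GRCh38.p14), printed on the plus strand in the direction of LINC00205, with each CG pair in capitals. The starts were 157 bases apart, and the 158 bases had 74.7% GC and 23 CG pairs.
LINC00205 to POFUT2: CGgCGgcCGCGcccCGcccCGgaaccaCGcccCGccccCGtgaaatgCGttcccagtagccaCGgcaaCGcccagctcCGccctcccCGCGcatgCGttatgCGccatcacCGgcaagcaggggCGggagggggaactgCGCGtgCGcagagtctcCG
The 300-base window around the start of LINC00205 had 72.3% GC and 34 CG pairs, and 15.1% and 15.6% of 35116 RefSeq promoter windows were at least as rich in GC and in CG pairs. RefSeq windows were given for 18 of the 30 members.

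Total estimated counts were 837614 to 1087711 in DASHed and 5803180 to 6026584 in untreated mini-bulk libraries, and 1018874 to 1573651 in DASHed and 5545355 to 6008358 in untreated single cells. Counts of rRNA, with 4 lincRNA genes that lie inside 18S rRNA, made up 38.02 to 42.7% of DASHed and 82.2 to 85.8% of untreated mini-bulk libraries, and 29.9 to 38.4% and 72.9 to 81.3% of DASHed and untreated cells. Of 8 markers of colon epithelium, VIL1 and CEACAM5 were nearly absent with 2 and 2.06 counts in all, while the list summed to 1166 to 1390 CPM, the count after every library is brought to 1 total, in DASHed and 151 to 198 CPM in untreated mini-bulk libraries, and to 903 to 4236 and 251 to 875 CPM in DASHed and untreated cells. Of 10 markers of blood, stromal, endothelial and liver cells, 7 were at 0 in all 12 libraries and the list summed to at most 29.4 CPM.

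In mini-bulk, 10 of the 27 members that could be tested fell in DASHed libraries and none rose. The 4 with the greatest falls, LINC02503, LINC00504, LINC01609 and LINC00506, were nearly lost, with LINC02503 at no rounded count in both DASHed libraries. Untreated libraries gave 92.1 to 98.1% of the summed counts of these 4 genes, against 82.5% of all counts. They reached the minimum through the libraries where they are high, so their falls may partly follow from the choice of members. The other 6 were LINC02306, LINC00641, LINC01226, LINC01963, LINC01234 and LINC00941, with falls of about 1 to 2 on the log2 scale. Untreated libraries gave 73.9 to 86.9% of their summed counts. Without untreated libraries none of these 6 would have reached the minimum, so their falls may partly follow from the choice too. Over all 10083 genes tested, 19.8% fell and 9.9% rose, and among the 7439 tested with at least 200 summed counts 22.6% fell and 13% rose. The median log2 fold change was −0.79 over the 27 members, also with LINC02503 set to its bound, 0.03 over all genes tested and 0.10 over those with at least 200 summed counts. A call needs an adjusted p under 0.05 in edgeR's quasi-likelihood test, and at an unadjusted p under 0.05 0 members were higher and 12 lower. LINC01772, LINC01297 and LINC02193 had too few mini-bulk counts to be tested. The labels name no separate cultures, so these p-values measure only the spread between 2 and 2 libraries, which may be technical, and in mini-bulk fewer cells with an RNA and less of it per cell cannot be told apart.

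**Figure D1:**
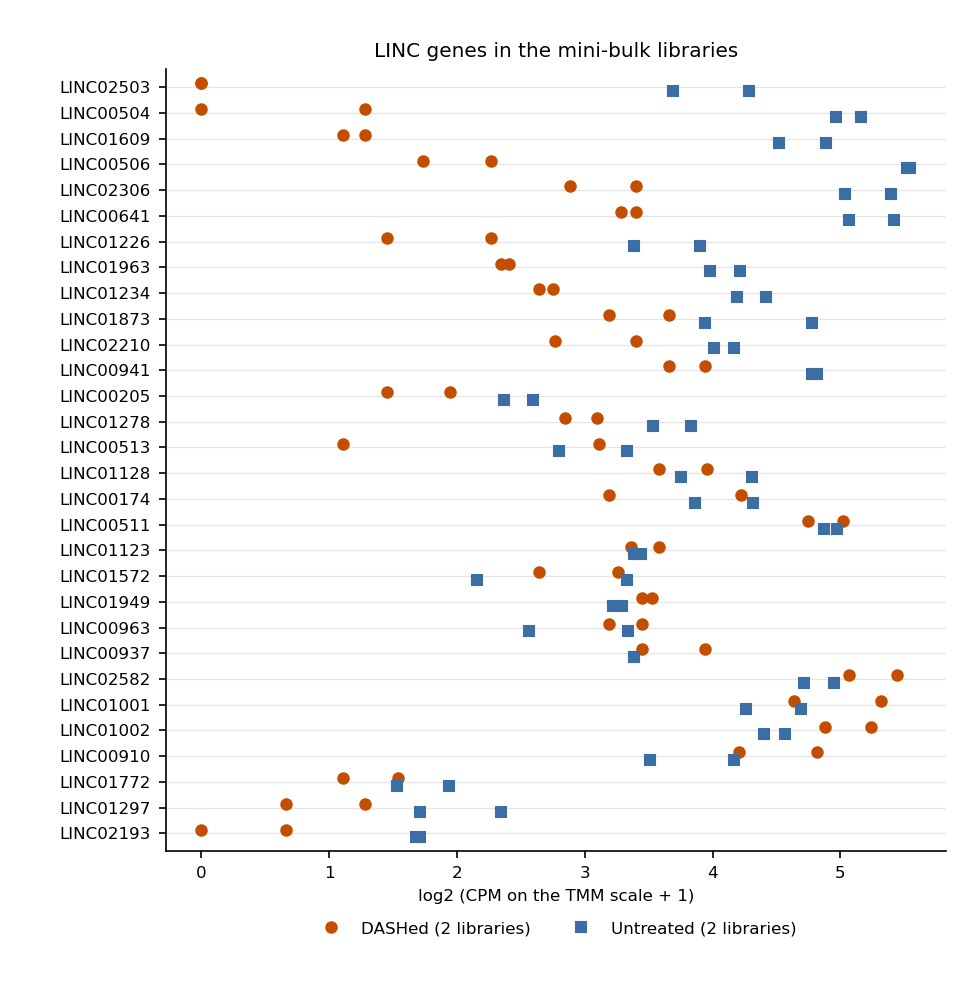
Each point is 1 mini-bulk library, DASHed (circles) or untreated (squares), with log2 of CPM on the TMM scale plus 1 along the axis and a row for each of the 30 LINC genes. In the 14 upper rows the DASHed points lie wholly below the untreated ones, and for LINC02503 both DASHed points are at 0.

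LINC00504 (chr4:14470465-14888169, minus strand) had 1.43 and 0 CPM on the TMM scale in DASHed libraries, against 34.8 and 30.2 CPM in untreated libraries. The TMM scale divides by library totals that are adjusted so that most genes are level. The groups did not overlap, and its fitted log2 fold change was −5.29 (SE 0.65, edgeR adjusted p = 0.000799). Its size is loosely known, since LINC00504 had only 3 rounded DASHed counts: the ratio on the TMM scale was 0.0244 with an exact 95% counting interval of 0.00498 to 0.0723. The fitted value was −4.33 without DASHed library 2, and without DASHed library 1 no DASHed count was left. LINC02503 (chr4:103961616-104036923, plus strand) had 0 CPM in both DASHed libraries, against 18.5 and 11.9 CPM in untreated ones. Set against a floor of 3 counts over the DASHed group, it was at least 19.2-fold lower (edgeR adjusted p = 0.00203). LINC01609, on chromosome 8, had 1.43 and 1.16 CPM in DASHed libraries, against 21.9 and 28.6 CPM in untreated ones. This amounts to a log2 fold change of −4.22 (SE 0.52, edgeR adjusted p = 0.000799) with no overlap. LINC00506 (chr3:87089129-87157069, plus strand) had 3.82 and 2.33 CPM in DASHed libraries, against 45.7 and 44.9 CPM in untreated libraries. It was the most abundant of the 30 in untreated mini-bulk on this scale, which does not allow for length, and its log2 fold change was −3.83 (SE 0.37, edgeR adjusted p = 0.00024).

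These 4 shared sequence with 3 other transcripts, a relation that was chosen after the values were seen. The 3 were HELLPAR, a very long non-coding RNA, NMNAT3, which encodes a mitochondrial enzyme of NAD synthesis, and the lincRNA OLMALINC. Of its 31-base words, LINC00504 held 18.9% in common with HELLPAR, 14.6% with NMNAT3 and 2.84% with OLMALINC. LINC02503 held 22.4%, 19.4% and 14.3% in common with HELLPAR, NMNAT3 and OLMALINC, and LINC01609 held 12.5%, 10.6% and 14.9%. LINC00506 held 7.61%, 8.09% and 11.5% in common with the same 3. The words shared with HELLPAR were all in the reverse orientation for LINC02503 and LINC01609, and mostly so for LINC00504. Those that LINC00506 shared with NMNAT3 and OLMALINC were all in the reverse orientation. Such words divide reads only where strand is ignored, and the handling of strand is not given. LINC01873, which did not pass the threshold, held 24.0% in common with HELLPAR and 3.21% with NMNAT3, and among the other fallen members LINC02306 held none with any of the 3.

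All 3 partners fell as well. HELLPAR had 147 and 123 estimated counts in DASHed mini-bulk libraries, against 1210 and 1478 in untreated ones, a log2 fold change of −2.70 (SE 0.16, edgeR adjusted p = 2.63e-05). NMNAT3 had 17.3 and 11 counts in DASHed libraries, against 319 and 343 in untreated ones, a log2 fold change of −3.95 (SE 0.25, edgeR adjusted p = 3.67e-05). OLMALINC had a log2 fold change of −1.77 (SE 0.17, edgeR adjusted p = 0.000247). The part of shared reads in the falls of the 4 LINC genes was not tested, so their size is uncertain.

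LINC02306 (chr14:25647304-26143305, minus strand) had 9.54 and 6.39 CPM on the TMM scale in DASHed libraries, against 31.7 and 41.2 CPM in untreated libraries. Its log2 fold change was −2.17 (SE 0.35, edgeR adjusted p = 0.00301), and it is the least repetitive of the fallen members after LINC01963, with 0.372% of its words shared. LINC00641 (chr14:21200079-21206900, minus strand) had 9.54 and 8.72 CPM in DASHed libraries, against 32.5 and 41.8 CPM in untreated ones, a log2 fold change of −2.02 (SE 0.33, edgeR adjusted p = 0.00292). In both genes every DASHed value lay below every untreated value.

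LINC01963 had 4.29 and 4.07 CPM in DASHed libraries, against 14.7 and 17.6 CPM in untreated ones, a log2 fold change of −1.94 (SE 0.46, edgeR adjusted p = 0.0137). LINC01226 (chr1:31506226-31583306, plus strand) had 3.82 and 1.74 CPM in DASHed libraries, against 13.98 and 9.43 CPM in untreated ones, and its log2 fold change of −2.02 (SE 0.59, edgeR adjusted p = 0.0318) lost its call without DASHed library 2 (edgeR adjusted p = 0.107). Neither gene's groups overlapped.

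LINC01234 and LINC00941 have both been studied in tumours of the digestive tract. LINC01234 (chr12:113679459-113773683, minus strand) had 5.73 and 5.23 CPM in DASHed libraries, against 20.4 and 17.3 CPM in untreated ones, a log2 fold change of −1.77 (SE 0.42, edgeR adjusted p = 0.0139). Without untreated library 1 its edgeR adjusted p was 0.0553. LINC00941 had 14.3 and 11.6 CPM in DASHed libraries, against 27.2 and 26.4 CPM in untreated ones, a log2 fold change of −1.04 (SE 0.32, edgeR adjusted p = 0.0395). The 2 groups did not overlap in either gene, but the call of LINC00941 was lost when any 1 of the 4 libraries was left out, at edgeR adjusted p of 0.0671 to 0.166. CAPRIN2, whose start lies 216 bases from that of LINC00941 on the other strand, fell too, with a log2 fold change of −1.71 (SE 0.50, edgeR adjusted p = 0.0302). With the correction for GC content described further on, CAPRIN2 moved to −0.59 and lost its call (edgeR adjusted p = 0.647).

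Of the 17 tested members that did not pass, LINC00910 (chr17:43369845-43389199, minus strand) had the greatest positive value. It had 27.2 and 17.4 CPM in DASHed libraries, against 17.01 and 10.4 CPM in untreated ones, a log2 fold change of 0.72 (SE 0.40, edgeR adjusted p = 0.192). LINC01002 and LINC01001, which share words with each other, were at 0.61 (edgeR adjusted p = 0.131) and 0.53 (edgeR adjusted p = 0.247). LINC01002 had 36.7 and 28.5 CPM in DASHed libraries, against 22.7 and 20.1 CPM in untreated libraries. For LINC01001 the values were 23.9 and 38.9 CPM in DASHed and 18.1 and 24.8 CPM in untreated libraries, so the groups of LINC01001 overlapped and those of LINC01002 did not.

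LINC02582 had 32.4 and 42.4 CPM in DASHed libraries, against 25.3 and 29.9 CPM in untreated ones, a log2 fold change of 0.43 (SE 0.27, edgeR adjusted p = 0.24). LINC00511, reported as raised in many carcinomas, was nearly level at 25.8 and 31.4 CPM in DASHed libraries and 28.3 and 30.5 CPM in untreated ones. Its log2 fold change was −0.05 (SE 0.27, edgeR adjusted p = 0.905), and LINC00963, studied in prostate cancer, was at 0.34 (SE 0.52, edgeR adjusted p = 0.635). LINC01873 had 8.11 and 11.6 CPM in DASHed libraries, against 14.4 and 26.4 CPM in untreated ones, which did not pass at a log2 fold change of −1.06 (SE 0.44, edgeR adjusted p = 0.0963). LINC01128 stood at −0.31 (SE 0.40, edgeR adjusted p = 0.57) and LINC00205 at −0.96 (SE 0.65, edgeR adjusted p = 0.277). Over all 27 tested members, both DASHed libraries were below both untreated ones in 14 and above both in 5. The same counts over all genes tested were not made, so these are a description only.

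**Figure D2:**
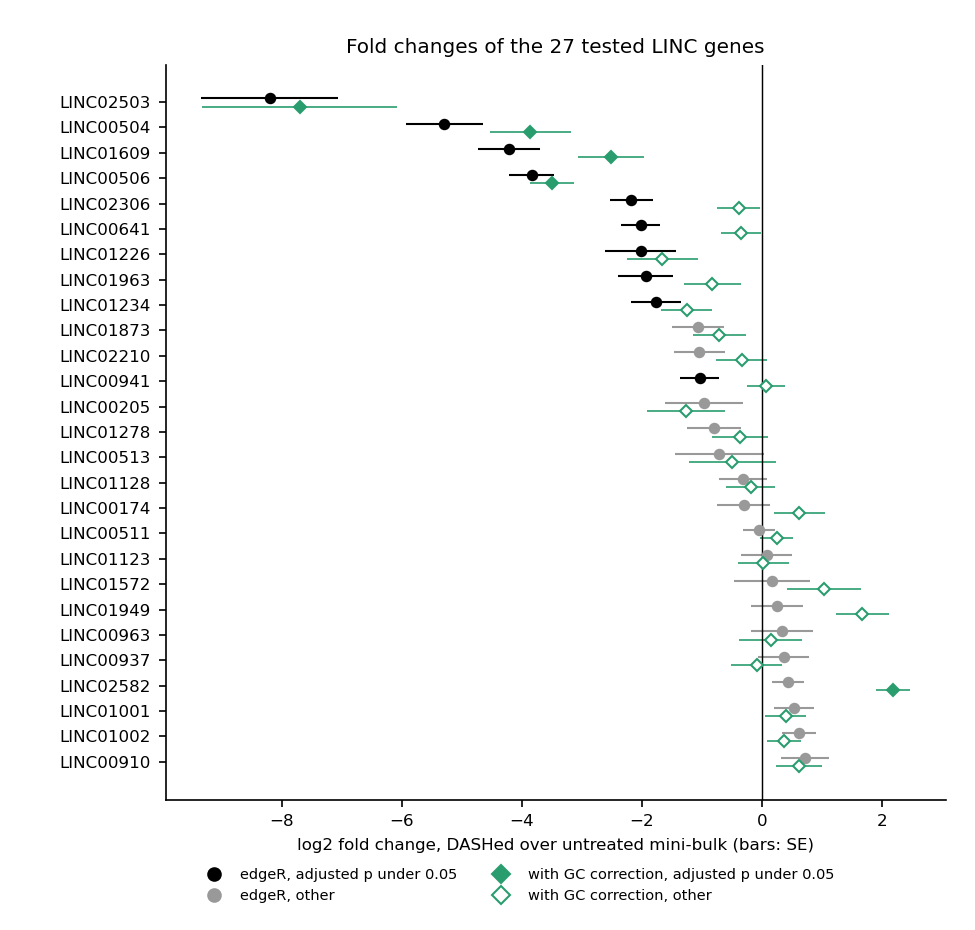
Log2 fold changes of the 27 tested LINC genes, DASHed over untreated mini-bulk, with bars of 1 SE, from edgeR (circles, black where the adjusted p is under 0.05) and from the same fit with a correction for GC content (diamonds, filled where the adjusted p is under 0.05). The corrected values of LINC02306 and LINC00641 move to between −1 and 0, and that of LINC02582 moves to 2.19. LINC02503 has no rounded DASHed count, so its fitted points give no size or bound.

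The fold changes ran with GC content. The 10 fallen members had a median GC content of 43.4% (38.1 to 49.3%) and the 17 others one of 50% (39.7 to 55.5%). As a description across genes, which share libraries and are not replicates, Spearman's rho between GC content and log2 fold change was 0.59 over the 27 members and 0.789 over 10053 genes. With a trend in GC content removed within each library, 4 members fell and 1 rose, while 2.21% of all genes tested fell and 1.6% rose.

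The 4 that fell after the correction were the same 4 with the greatest falls, namely LINC02503 (edgeR adjusted p = 0.0365, with no fold given because no DASHed count was left after rounding) and 3 others. The log2 fold change was −3.86 for LINC00504 (edgeR adjusted p = 0.013), −3.49 for LINC00506 (edgeR adjusted p = 0.000777) and −2.52 for LINC01609 (edgeR adjusted p = 0.0365). For the other 6 the call ended. LINC02306 moved to −0.39 (edgeR adjusted p = 0.682), LINC00641 to −0.35 (edgeR adjusted p = 0.701) and LINC01963 to −0.82 (edgeR adjusted p = 0.44). LINC01226 moved to −1.66 (edgeR adjusted p = 0.182), LINC01234 to −1.25 (edgeR adjusted p = 0.155) and LINC00941 to 0.06 (edgeR adjusted p = 0.954). LINC02582 rose instead, with a corrected log2 fold change of 2.19 (SE 0.29, edgeR adjusted p = 0.00276). Of the pair of stretches printed above, with nearly equal GC content, the gene of one thus fell before the correction and not after it, and the gene of the other rose only after it. Among the partners, HELLPAR moved to −0.77 (edgeR adjusted p = 0.0256), NMNAT3 stayed at −3.95 and OLMALINC moved to −1.73.

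**Figure D3:**
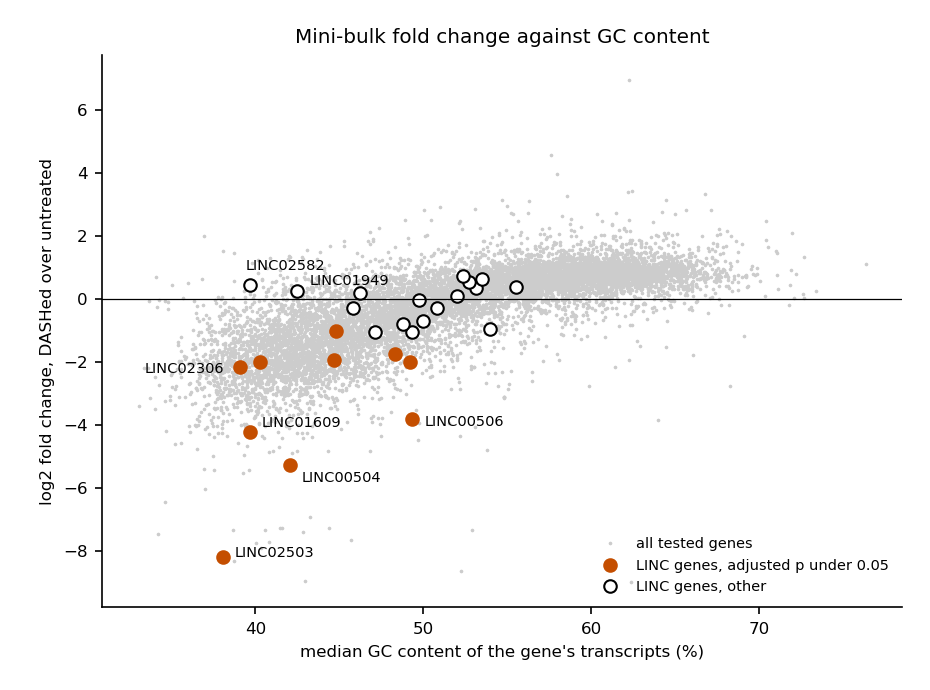
Log2 fold change in mini-bulk, DASHed over untreated, against the median GC content of a gene's transcripts in percent, for all tested genes (small grey points) and the 27 tested LINC genes (large points, filled where the adjusted p is under 0.05). LINC02582 at 39.7% GC lies above 0 and LINC02306 at 39.1% GC near −2. LINC00506 at 49.3% GC lies at −3.83, where some other genes of like GC content lie too, such as AC010970.1 (49.7% GC, −3.95).

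Per length of transcript, LINC01002 and LINC02582 were the most abundant members in DASHed mini-bulk, at 114 and 88.4 CPM per kb, against 18.6 and 16.2 CPM per kb in untreated mini-bulk. LINC00511 followed with 50.7 CPM per kb in DASHed and 12.9 in untreated libraries, LINC01001 with 40.4 and 6.88, and LINC00937 with 38.4 and 7.54. These levels are of total counts, without TMM, so they move with the share of rRNA. LINC00506 had 10.4 CPM per kb in DASHed and 22.6 in untreated cells, and LINC01002 had 74.5 in DASHed and 22.5 in untreated cells, so these 2 stood highest among untreated cells.

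In single cells the same 4 genes, LINC02503, LINC00504, LINC01609 and LINC00506, stood lowest in DASHed relative to untreated libraries. Counts in the untreated cells helped these 4 genes to reach the minimum. Their low values may therefore partly follow from the choice of members, here as in mini-bulk. Each library is 1 cell and no culture is named, so these values carry no test. Counts were summed over the 4 cells of a group as CPM, and each ratio was set against that of the median gene. At least 2-fold lower in DASHed than in untreated cells were 10 of the 30 members, where 23.7% of 13469 genes with at least 20 counts were so low. At least 2-fold higher were 2 members, where 12.6% of genes were so high. Among the 7755 of these genes that had at least 200 summed counts, 14.6% were as low and 18.9% as high, and among the 4952 whose sums reached no higher than that of the highest member 18.3% were as low and 15% as high. The median member stood at −0.55 on the log2 scale relative to the median gene, and the median gene with at least 200 summed counts at 0.45. Of the 10 members that fell in mini-bulk, 8 were among the 10 lower ones in cells.

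LINC01609 had 6.3, 1.3, 0 and 0 estimated counts in DASHed cells 1 to 4, against 80.7, 30.6, 48.3 and 75.9 in untreated cells 1 to 4. It stood at −3.37 relative to the median gene on the log2 scale. LINC00504 had 2.5, 5.6, 1.5 and 5.6 counts in DASHed cells, against 74.9, 98.4, 70.7 and 76 in untreated cells, and stood at −3.12. LINC02503 had 1, 0, 1 and 2.8 counts in DASHed cells, against 49.8, 47, 13.8 and 67.3 in untreated cells, and stood at −3.35. In each of the 3 genes the highest DASHed cell lay below the lowest untreated cell in counts, but the untreated libraries were deeper. In CPM these cells stood at 4.73 against 5.52 for LINC01609, 5.45 against 11.8 for LINC00504 and 1.79 against 2.29 for LINC02503. The same comparison over all genes was not made, so it is a description only. In CPM the summed ratios were 0.135 for LINC01609 (95% interval 0.0609 to 0.286), 0.2 for LINC00504 (0.109 to 0.331) and 0.114 for LINC02503 (0.0379 to 0.281), where intervals are exact for Poisson counts and cover counting error only.

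LINC00506 had 4.9, 0, 16.2 and 14.9 counts in DASHed cells, against 75.5, 49.7, 83.9 and 87.2 in untreated cells, and stood at −2.01. LINC02306 had 0, 1, 21.4 and 31.7 counts in DASHed cells, against 2.1, 15.6, 194.7 and 141.8 in untreated cells, and stood at −1.73. Both treatments thus gave LINC02306 mainly in cells 3 and 4, while LINC00506 was seen in all 4 untreated cells. LINC01226 stood at −1.74, LINC00641 at −1.19, LINC02210 at −1.13, LINC01963 at −1.07 and LINC01278 at −1.03. LINC01234 and LINC00941, which fell in mini-bulk, stood at −0.82 and −0.54, short of the 2-fold mark. The partner HELLPAR had 171, 52.8, 163 and 166 counts in DASHed cells, against 1098, 878, 1001 and 1237 in untreated cells.

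The 2 members higher in DASHed cells were LINC00910 and LINC01123. LINC00910 had 10.5, 20.1, 280.7 and 119.9 counts in DASHed cells, against 7.4, 31.1, 218 and 93 in untreated cells, and was 2.24-fold higher relative to the median gene. LINC01123, whose values are uncertain because nearly all of its words recur in other genes, was 2.19-fold higher. It had counts in DASHed cell 3 alone, with 105.8, against 68.5 in untreated cell 3 and 6 in untreated cell 1. LINC00910 was the 1 member that was higher in all 4 pairs of same-numbered cells relative to the genes of that pair. By the same measure 15 members were lower in all 4, among them 9 of the 10 that fell in mini-bulk. A pair with 0 counts in both libraries also scored as lower, which is no observed fall. That was so in cell 1 for LINC01772, LINC00513 and LINC01963, the last of which fell in mini-bulk. The same counts over all genes were not made, so those of the members are a description only.

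Which cells held the members was largely the same in both treatments. Once the mean of its group was taken off, a DASHed library correlated with the untreated library of its own number at 0.913 to 0.923 over 9356 genes, and with those of other numbers at −0.386 to −0.222. What the number stands for is not in the labels, and the numbers were taken from these correlations to pair the libraries, so DASHed and untreated values of 1 number are no independent replicates. The highest cell had the same number in both treatments for 20 of the 30 members, or 66.7%, where 77.3% of all genes with at least 20 single-cell counts and 79.8% of those with at least 200 summed counts did so. In the narrower band between 200 summed counts and the highest member, 79.4% did so. These 20 were spread as 6, 7, 3 and 4 over cells 1 to 4. Averaged over the treatments, cell 3 was the highest for 10 members, cell 1 for 8, cell 2 for 7 and cell 4 for 5.

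**Figure D4:**
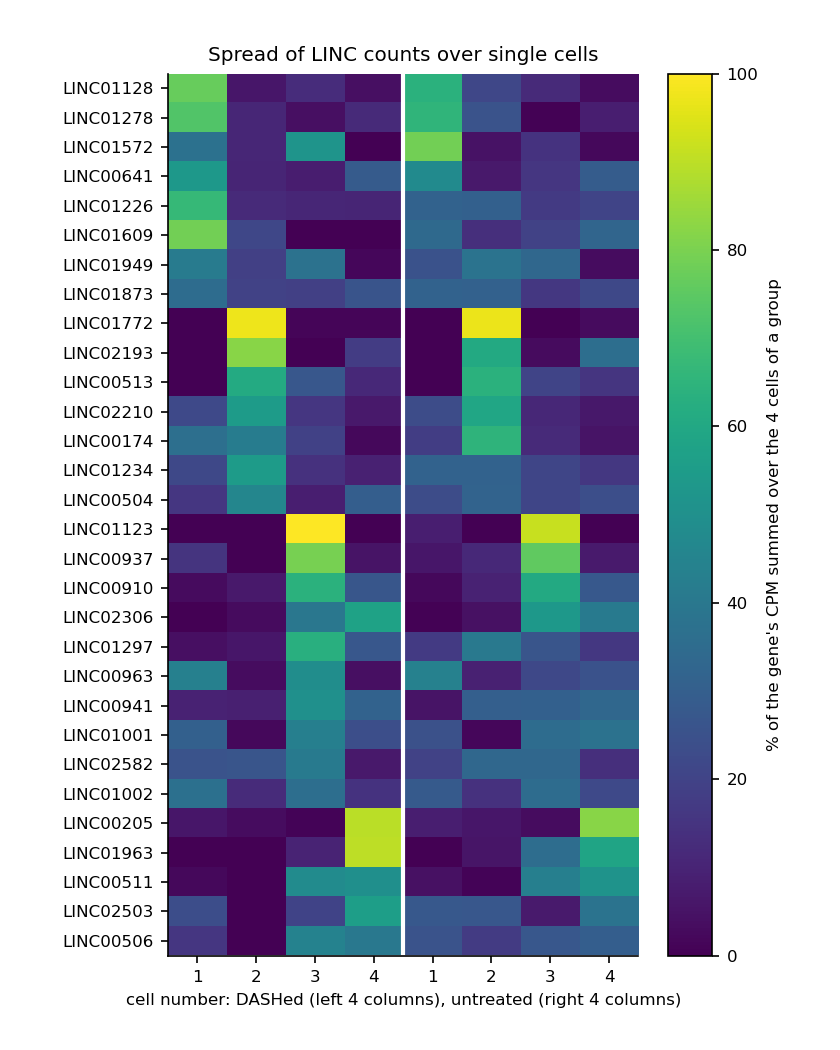
Share of each LINC gene's CPM, in percent of its sum over the 4 cells of a treatment, in DASHed cells 1 to 4 (left 4 columns) and untreated cells 1 to 4 (right 4 columns), with the genes ordered by their highest cell. The bright squares of LINC01772 (cell 2), LINC01123 (cell 3) and LINC00205 (cell 4) stand in the same cell number in both treatments, and LINC01873 and LINC00506 are among the most even rows.

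Most members were spread over several cells. Over 50% of the CPM stood in 1 cell number for 14 of the 30 members, or 46.7%, where 65.6% of all genes with at least 20 single-cell counts and 54.7% of those with at least 200 summed counts were so concentrated, as were 68.5% of the genes in that band. The median share of the highest cell number was 47.6% for members and 52.0% for genes with at least 200 summed counts. All 8 single-cell libraries had counts for 18 members. At least 10 counts in every cell were seen for 6 members in DASHed cells and for 14 in the deeper untreated cells.

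LINC01772 (chr1:16460948-16468481, plus strand) was a gene of cell 2. It had 0, 142.8, 2.7 and 3.2 counts in DASHed cells 1 to 4, against 0, 380.7, 0 and 11 in untreated cells 1 to 4, and cell 2 held 97.4% of its CPM. Without cell 2, LINC01772 had 36.5 summed counts and would not have reached the minimum. Its concentration may therefore partly follow from the choice of members. In mini-bulk LINC01772 had 4 and 2.4 counts in DASHed and 4.7 and 8.6 counts in untreated libraries, so the most concentrated gene but one was close to absent there. LINC01772 shares 27.9% of its exonic bases with the pseudogene CROCCP3 on the other strand, and CROCCP3 had 0 counts in DASHed and 2.6 counts in untreated cell 2.

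LINC01123 (chr2:109987063-109996140, plus strand), described elsewhere as a target of MYC, had 98.7% of its CPM in cell 3. Without cell 3 it had 101.5 summed counts and would not have reached the minimum. The choice of members may therefore account for part of its concentration. ZBTB45P1, a pseudogene that overlaps LINC01123 on the other strand, had 3, 0, 36.9 and 69 counts in DASHed cells and 0, 0, 55.9 and 27 counts in untreated cells. LINC01106, with which LINC01123 shares 71.1% of its words, had 37.6 counts in untreated cell 3 and 1.3 in DASHed cell 3. Signal in cell 3 was therefore common to the 3 genes, and their reads cannot be told apart where the words are the same. LINC00937 had 12, 0, 73.3 and 5 counts in DASHed cells and 6, 11.1, 79.2 and 7.1 counts in untreated cells, with 78.6% of its CPM in cell 3, and LINC00910 had 63.3% there. LINC00937 had 296 summed counts and would not have reached the minimum without those of cell 3. Its concentration may therefore partly follow from the choice of members.

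Cell 1 was the highest for LINC01128 (chr1:825138-859446, plus strand), which had 181.4, 11, 35 and 12 counts in DASHed cells and 197, 63, 38 and 10 counts in untreated cells. Cell 1 held 73.8% of its CPM. LINC01278 (chrX:63343227-63561071, minus strand) had 61, 7, 4 and 12 counts in DASHed cells and 217, 82, 2 and 27 counts in untreated cells, with 69.4% in cell 1. LINC02193 had 0, 42, 0 and 14 counts in DASHed cells and 0, 94, 5 and 57 counts in untreated cells, with 74.6% in cell 2. Cell 1 thus held most of LINC01128 and LINC01278 in both treatments, and cell 2 most of LINC02193. LINC02193, with 226 summed counts, would not have reached the minimum without those of cell 2. The choice of members may therefore account for part of its concentration.

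LINC00205 (chr21:45288050-45297806, plus strand), a lncRNA studied in liver cancer, was a gene of cell 4. It had 5, 2, 1 and 86.8 counts in DASHed cells, against 9.9, 6.6, 4.1 and 93.8 in untreated cells, and cell 4 held 87.8% of its CPM. Without cell 4, LINC00205 had 64.9 summed counts and would not have reached the minimum. Its concentration may therefore partly follow from the choice of members. POFUT2, which starts on the opposite strand of the CG-rich stretch printed above, had 77, 0, 195 and 0 counts in DASHed cells, against 57, 0, 179 and 0 in untreated cells. The cell that held most LINC00205 thus had no count of POFUT2 in either treatment, and a count of 0 allows up to 1.91 CPM in DASHed and 0.529 CPM in untreated cell 4. With 4 cells this is a description of those cells. In mini-bulk both were seen, with 6 and 3 LINC00205 counts and 24 and 4 POFUT2 counts in DASHed libraries, and with 11.2 and 16.1 LINC00205 counts and 22 and 9 POFUT2 counts in untreated libraries.

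**Figure D5:**
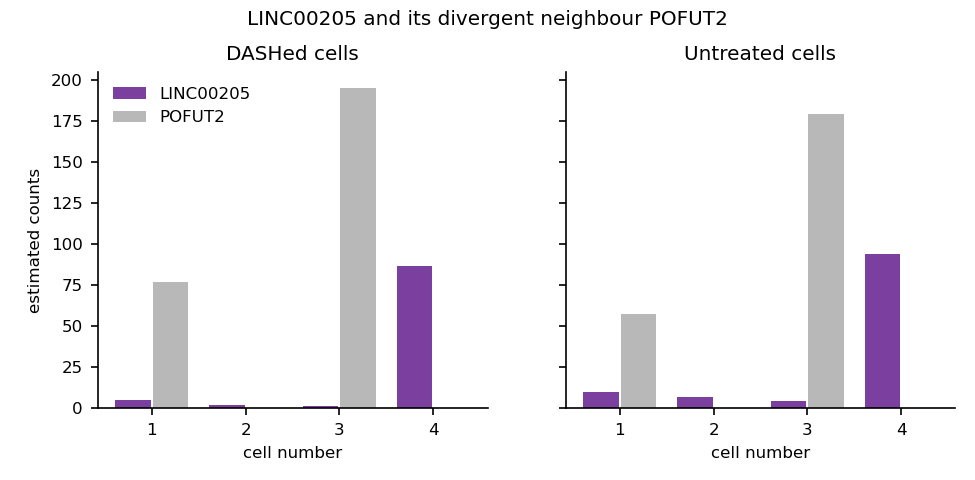
Estimated counts of LINC00205 and of POFUT2, which starts on the other strand of the same promoter region, in DASHed cells 1 to 4 (left) and untreated cells 1 to 4 (right), with 1 library per bar. LINC00205 is highest in cell 4 in both treatments, where POFUT2 has no count, and POFUT2 is highest in cell 3.

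The most even members were LINC00506, LINC01873, LINC00504 and LINC01002, whose highest cell number held 33.1%, 33.9%, 34.2% and 35.9% of the CPM. LINC01873 had 54.7, 23.5, 33.8 and 47.5 counts in DASHed cells and 120.9, 115.7, 65.2 and 81.9 counts in untreated cells. LINC01002 had 83, 21.2, 93.9 and 38.5 counts in DASHed cells and 82.7, 40.8, 107.8 and 64 counts in untreated cells. All 4 of these genes hold much shared sequence, from 27.9% of the words of LINC00506 to 77.8% of those of LINC01002, and its part in their evenness was not tested.

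Other members of high counts were held by some of the cells. LINC00511 had 4.9, 0, 137.6 and 146 counts in DASHed cells and 13.7, 2.5, 132.9 and 148.3 counts in untreated cells, so cells 3 and 4 held nearly all of it. LINC02582 was in every cell, with 64.3, 51, 120.2 and 20.3 counts in DASHed and 61.2, 99.9, 108.1 and 41.1 counts in untreated cells. LINC01001 had 65.4, 3.2, 106.1 and 60.6 counts in DASHed cells and 66.7, 4.8, 99 and 98.9 counts in untreated cells, so it was low in cell 2. LINC00641 had 41, 6, 7 and 26 counts in DASHed cells and 168.9, 23.1, 58.5 and 101 counts in untreated cells, with cell 1 highest in both. LINC01234 had 33.4, 65.5, 26 and 17 counts in DASHed cells and 150.1, 145.5, 104.5 and 76 counts in untreated cells. LINC00963 had 39.6, 2.4, 51.8 and 4.6 counts in DASHed cells and 36.7, 7.4, 18.8 and 20.7 counts in untreated cells, with different highest cells in the 2 treatments.

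Together the 30 members made up 0.0615% of the counts in each DASHed mini-bulk library, against 0.0222% and 0.0293% in untreated libraries. The ratio of the mean shares was 2.39, and the DASHed libraries lay above both untreated ones. In single cells the joint share was 0.0588%, 0.051%, 0.0843% and 0.0474% in DASHed cells 1 to 4, against 0.0294%, 0.0337%, 0.0301% and 0.0281% in untreated cells, with a ratio of 1.99. The summed share was 0.0613% in DASHed cells (exact 95% interval 0.0592 to 0.0634%) and 0.0303% in untreated cells (0.0296 to 0.031%). Once rRNA was left out of the total, the ratios turned to 0.644 in mini-bulk and 0.656 in cells. The members thus took a larger share of all counts in DASHed libraries and a smaller share of the counts that were not rRNA.

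Thinned to 837450 counts per mini-bulk library, 28 and 28 members had at least 1 count in DASHed libraries, against 26 and 29 in untreated ones. At least 10 counts were seen for 17 and 17 members in DASHed libraries, against 5 and 12 in untreated libraries. Thinned to 1018815 counts per cell, 24, 24, 25 and 27 members were seen in DASHed cells, against 26, 27, 27 and 29 in untreated cells. At least 10 counts were seen for 13, 11, 19 and 11 members in DASHed cells, against 10, 13, 12 and 13 in untreated cells. At an equal number of counts, DASHed mini-bulk libraries had more members with at least 10 counts, and in cells the groups overlapped. Without thinning the order turned, with at least 10 counts for 20 and 17 members in DASHed and 27 and 28 in the deeper untreated mini-bulk libraries, and for 16, 11, 20 and 17 in DASHed and 22, 23, 26 and 25 in untreated cells. At the lower mark of 1 count and also without thinning, 28 and 28 members had a count in DASHed and 30 and 30 in untreated mini-bulk libraries, and 24, 24, 28 and 27 in DASHed and 26, 29, 29 and 29 in untreated cells.

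Lists of known non-coding RNAs give the members a setting. Of 24 LINC genes listed from work on cancer, 20 were in the table and 4 were members (LINC00511, LINC01234, LINC00963 and LINC00205). Of the 6 that could be tested in mini-bulk none rose and LINC01234 alone fell, and their median on the log2 scale was −0.54. Of 8 LINC genes listed for encoded microproteins 1 was in the table, with no member, and of 3 tied to chromatin or p53 2 were in the table, where LINC-PINT had a log2 fold change of −2.20 and so fell (SE 0.29, edgeR adjusted p = 0.00113).

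Of 19 better-known non-coding RNAs with other names, 18 were in the table and 14 were tested, of which 10 fell and none rose, and their median on the log2 scale was −1.98. Over all tested genes with at least 200 summed counts, 22.6% fell and 13% rose, with a median of 0.10. With the GC correction 2.21% of all genes tested fell, and corrected values of this list and of LINC-PINT are not given here. MALAT1, which marks nuclear speckles, had 338 and 198 counts in DASHed mini-bulk libraries, against 1983 and 2041 in untreated ones, a log2 fold change of −2.33 (SE 0.19, edgeR adjusted p = 0.000102). NEAT1, which builds paraspeckles, fell by 0.64 (SE 0.15, edgeR adjusted p = 0.0123). KCNQ1OT1, an imprinted antisense RNA whose value is uncertain because the handling of strand is not given, fell by 1.24 (SE 0.20, edgeR adjusted p = 0.0029), and the snoRNA host SNHG1 fell by 2.31 (SE 0.24, edgeR adjusted p = 0.000354).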

How the data were processed

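Unscaled estimated counts of the 12 libraries were deposited in 1 table. The submitters' processing notes name kallisto 0.46.2. Genome build, annotation, handling of strand and the step from transcripts to genes: not given in the sources used here. Groups came from the sample titles. Members and gene lists were chosen with earlier results of these data known. The gene that the rule leaves out is not reported here.

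Estimated counts were rounded and fitted over the whole table with edgeR 4.0.16 (R 4.3.3): TMM factors, the default filter, the quasi-likelihood test and Benjamini-Hochberg adjustment at 0.05. The GC correction used lowess offsets (span 0.3) on the median GC content of a gene's GENCODE v29 transcripts. The fit was tested on simulated data. Single-cell ratios used summed CPM with a pseudocount of 1 CPM, minus the median of genes with at least 20 single-cell counts. The floor was 3 counts. Words of 31 bases were compared between all GENCODE transcripts in both orientations. Sequences came from GENCODE v29 and RefSeq (GRCh38.p14). Among gene names, 219 have more than 1 identifier.

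Named genes were the 10 with most counts, up to 8 with the greatest called change each way, up to 8 of at least 100 single-cell counts with the highest share in 1 cell number, the 4 most even, list members and the edge of the minimum. Others were named after their values were seen. Alternatives were DESeq2 1.42.0, other scalings and filters, the GC correction, a replicate block and leaving out each library. Single cells of the same number were paired from the correlations given above.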

Additional observations from a re-analysis of the deposited data

Results flagged for a closer look

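A cell that stood apart from the other 3 of its treatment was found in 13 of 60 groups of 4 cells, 1 group per gene and treatment. That is 21.7% of the groups, where the same rule set a cell apart in 28.6% of the groups of all genes with at least 20 single-cell counts, in 17.1% of those of genes with at least 200 summed counts and in 22.1% between 200 summed counts and the highest member. The rule's nominal rate of about 1 in 20 groups is therefore no measure here, and the 2 groups of a gene are not independent. In 3 genes the same cell number stood apart in both treatments. LINC01772 reached 140.1 CPM in DASHed cell 2 and 68.7 CPM in untreated cell 2, LINC01123 reached 68.8 CPM in DASHed cell 3 and 11.4 CPM in untreated cell 3, and LINC00205 reached 55.2 CPM in DASHed cell 4 and 16.6 CPM in untreated cell 4. These 3 genes reached the minimum of 200 summed counts only through that cell number, since the other libraries gave 36.5 counts of LINC01772, 101.5 of LINC01123 and 64.9 of LINC00205. Other members depended on 1 cell number too, for example LINC00937 on cell 3 and LINC02193 on cell 2.

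In the remaining genes with a cell apart, it stood apart in 1 treatment. Among DASHed cells, LINC01128 stood at 136.8 CPM, LINC01278 at 46.0 CPM and LINC01226 at 8.24 CPM in cell 1, and LINC01963 at 10.8 CPM in cell 4. Among untreated cells, LINC00937 stood at 13.2 CPM in cell 3 and LINC01572 at 15.8 CPM in cell 1, and LINC00941 was lowest at 1.90 CPM in cell 1.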

How the results depend on the processing

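Against 0 members higher and 10 lower in mini-bulk, total counts alone gave 13 and 4, before a shift of 2.04 in the median of all genes (log2) is taken off, DESeq2 gave 0 and 8, the GC correction gave 1 and 4, and leaving out 1 library gave 0 to 1 and 6 to 9. The replicate block gave 3 and 12, and with the GC correction 2 and 6. Same-numbered mini-bulk libraries deviated together at a correlation of 0.45, but with 2 pairs the numbers were not taken to pair them. LINC00504, LINC00506 and LINC01609 kept their call in 11 of 11 alternatives and LINC02503 in 9 of 9. Signs turned under total counts alone for LINC00511 (1.97), LINC01234 (0.25), LINC01873 (0.92), LINC01128 (1.69), LINC01278 (1.21), LINC00941 (0.98), LINC00174 (1.72), LINC02210 (0.95), LINC00513 (1.30), LINC00205 (1.02), LINC01226 (0.000595) and LINC01963 (0.057), all below the median gene there. They turned with the GC correction for LINC00511 (0.24), LINC00941 (0.0648), LINC00174 (0.62) and LINC00937 (−0.0887), and with it and the block for LINC00511 (0.24), LINC00941 (0.0649), LINC00174 (0.59) and LINC00937 (−0.10). LINC00511 turned to 0.0246 in DESeq2 and to 0.0427 with rRNA left out. Leaving out 1 library in turn gave values of both signs for LINC00511 (−0.23 to 0.22), LINC01128 (−0.70 to 0.0147), LINC00174 (−0.85 to 0.26), LINC00513 (−2.51 to 0.16), LINC01123 (−0.17 to 0.31), LINC00963 (−0.16 to 0.65) and LINC01572 (−0.60 to 0.86), none of which passed the threshold. The cause was not tested. The ratios of joint shares turned to 0.644 and 0.656 without rRNA. Of the 16 members with at least 400 summed counts, 10 had the same highest cell in both treatments and 6 had over 50% in 1 cell, against 20 and 14 of all 30. Without 1 cell number, where shares are of fewer cells, 20 to 22 had over 50% in 1 cell. Members with at least 10 counts averaged 17 in DASHed and 8.5 in untreated mini-bulk thinned, against 18.5 and 27.5 unthinned, and 13.5 in DASHed and 12 in untreated cells thinned, against 16 and 24 unthinned. With 2 libraries a group and few counts a gene, small changes were not detectable.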
